A study of Homo sapiens with 6 samples.

Results

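Interferon effectors are the proteins that a cell makes once interferon has been sensed. Interferon binds its receptors, JAK kinases pass the signal on to transcription factors, and these enter the nucleus with IRF9 and bind interferon-stimulated response elements (ISREs) in promoters. The effectors made from these genes block viral entry, copying, translation or release, and many epithelial cells express some of them at a basal level without infection. Described here are 46 effector genes outside the IFIT and OAS families, listed by symbol and found through their Ensembl identifiers among the 60240 genes of the count table. Of the 46 genes, 37 had enough counts to be tested, among 17672 genes tested in all.

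The RNA-seq libraries came from the colorectal carcinoma line HCT116, 3 from wild-type (WT) and 3 from LSD1 knockout (LSD1 KO) cells. LSD1, encoded by KDM1A, is the demethylase of histone H3 lysine 4. The KO cells were made by CRISPR/Cas9 with a target in the first exon of the gene. They were transiently transfected, selected with puromycin and expanded as single clones, and the study describes no such steps for the WT cells. How many clones the KO libraries come from is not given in the sources used here. Both groups were grown in the same McCoy's 5A medium, and the labels name no interferon, virus or other agent for either group. Nothing in the labels says whether the 3 libraries of a group came from separate cultures, so p-values measure the spread between these libraries.

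Total counts ranged from 25379279 to 29186963 per library, and a count of 3, taken as the floor, equalled 0.0994 to 0.114 CPM (counts relative to the TMM-scaled library size). Floors cover counting error only. KDM1A had 6119, 5927 and 6451 counts in the WT libraries and 837, 749 and 734 in the LSD1 KO libraries (log2 fold change -2.97, standard error 0.15, q value 0.000451 from edgeR). Of 7 epithelial markers, 6 had over 10 counts in every library, whereas 3 of 7 leukocyte markers were at or under 3 counts in every library and all 7 together summed to 1.32 to 2.39 CPM. Within the epithelial list, which summed to 2044 to 3820 CPM in WT and 2421 to 3160 CPM in LSD1 KO, EPCAM fell with the replicate block described next (204 ± 39.2 to 104.3 ± 28.3 CPM, SD, n = 3 each, q value 0.0788 from edgeR). Of 6 fibroblast or endothelial markers found, COL1A1 rose in that fit (22.7 ± 1.97 to 32.4 ± 2.05 CPM, q value 0.0628 from edgeR), and it made up most of that list's sum of 21.1 to 25.1 CPM in WT and 31 to 35.7 CPM in LSD1 KO, with 3 of the 6 at or under 3 counts in every library. The part of these marker changes in the effector results was not tested. In bulk libraries, fewer cells expressing a gene and less RNA per cell cannot be told apart. Same-numbered WT and LSD1 KO libraries deviated together from their group means, with Pearson's r of 0.639, 0.631 and 0.491 for replicates 1, 2 and 3. Each comparison was therefore fitted without and with the replicate number as a block. The labels do not say whether same-numbered libraries were prepared together, so this pairing is inferred from the counts.

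The effectors spanned a wide range of basal levels. In WT cells the highest level per kilobase of canonical transcript belonged to ISG15, at 480.0 ± 190.1 CPM per kb (SD, n = 3), followed by IFITM3 at 309.8 ± 85, and the libraries of these genes overlapped. LGALS3BP, a secreted glycoprotein, followed at 125 ± 11.7 CPM per kb, below every library of IFITM3. IFITM2 had 73.4 ± 21.0 and IFI6 had 47.8 ± 22.9 CPM per kb, and their libraries overlapped as well. In counts alone, 4 of the 46 genes had a WT mean above 100 CPM and 19 were above 10 CPM in every library. At the other end, 9 genes stayed under 1 CPM in every library and were not tested in edgeR with all libraries and the filter on low counts. These were MX2, GBP1, GBP2, RTP4, RSAD2, SAMD9L, IFI16, XAF1 and IFI44L.

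IFI16, a nuclear DNA sensor, had 0 counts in each of the 6 libraries, which allows at most the floor of 3 counts in a library. GBP1, RTP4 and IFI44L were at or under 3 counts in every library. MX2 had counts of 8, 0 and 2 in the WT and 1, 1 and 0 in the LSD1 KO libraries, and SAMD9L had counts of 7, 0 and 4 in the WT and 3, 0 and 0 in the LSD1 KO libraries. XAF1, which binds an inhibitor of apoptosis, had counts of 7, 0 and 26 in the WT and 5, 0 and 0 in the LSD1 KO libraries, so its WT counts came mostly from replicate 3. GBP2 had counts of 1, 3 and 7 in the WT and 1, 1 and 8 in the LSD1 KO libraries.

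**Figure D1:**
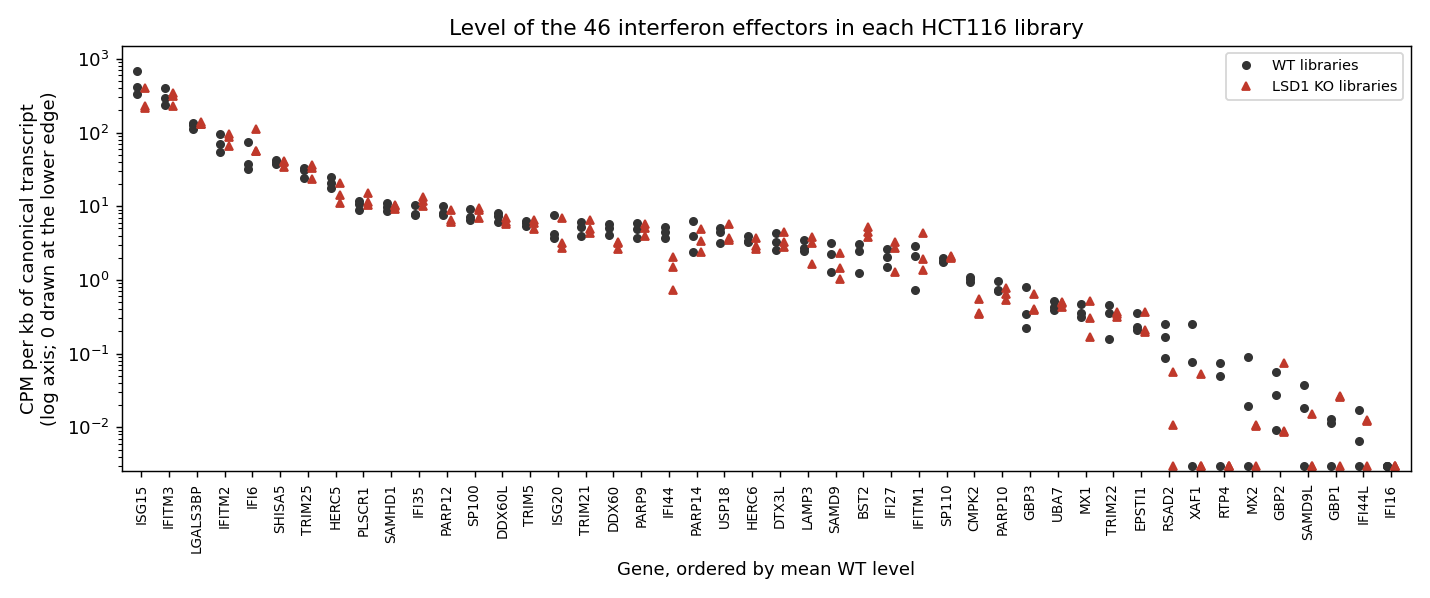
Level of each of the 46 interferon effectors in CPM per kb of canonical transcript (log axis) in the 3 WT libraries (circles) and the 3 LSD1 KO libraries (triangles), ordered by WT mean, with values of 0 drawn at the lower edge. ISG15 and IFITM3 stand at the top, IFI16 is at 0 in all libraries, and the triangles of IFI44, DDX60, CMPK2 and RSAD2 lie below their circles.

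The comparison of LSD1 KO with WT cells asked which effectors fell, stayed flat or rose when LSD1 was lost. In the fit without the replicate block, 0 of the 37 effectors tested had a q value under 0.1, against 0.00566% of all genes tested, which was KDM1A alone. DESeq2's Wald test called 1 effector, IFI44, against 0.376% of the genes it tested, and 4 effectors had an unadjusted p under 0.05 in edgeR without the block, against 3.12% of all genes tested. With the block, 10 effectors had one, against 13.4%. With the replicate block, 5 of the 37 effectors (13.5%) had a q value under 0.1, against 1.6% of all genes tested. ISG15, HERC5, DDX60 and IFI44 fell (0.549% of all genes tested fell), and IFI6 rose (1.05% of all genes tested rose). All 5 kept their direction in each of the 3 same-numbered pairs, which selection by the fit with the block makes likely. Effectors that it did not call, CMPK2 and BST2 among them, did so as well.

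An effector was classed as flat where the 95% interval of its fold change lay within 1.5-fold in either direction, since a q value above the threshold does not show that a gene stayed the same. With the replicate block, 18 of the 37 effectors (48.6%) were flat, against 55.6% of all genes tested, and 14 could be placed in no class. Without the block, 9 effectors (24.3%) were flat, against 28.1% of all genes tested. The median log2 fold change of the 37 effectors was 0.0036 with the block and -0.0014 without it, beside 0.0030 and 0.00082 over all genes tested. Of the 37 effectors, 18 had a negative and 19 a positive log2 fold change with the block. Below, a gene is called flat from the fit with the block unless both fits are named.

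**Figure D2:**
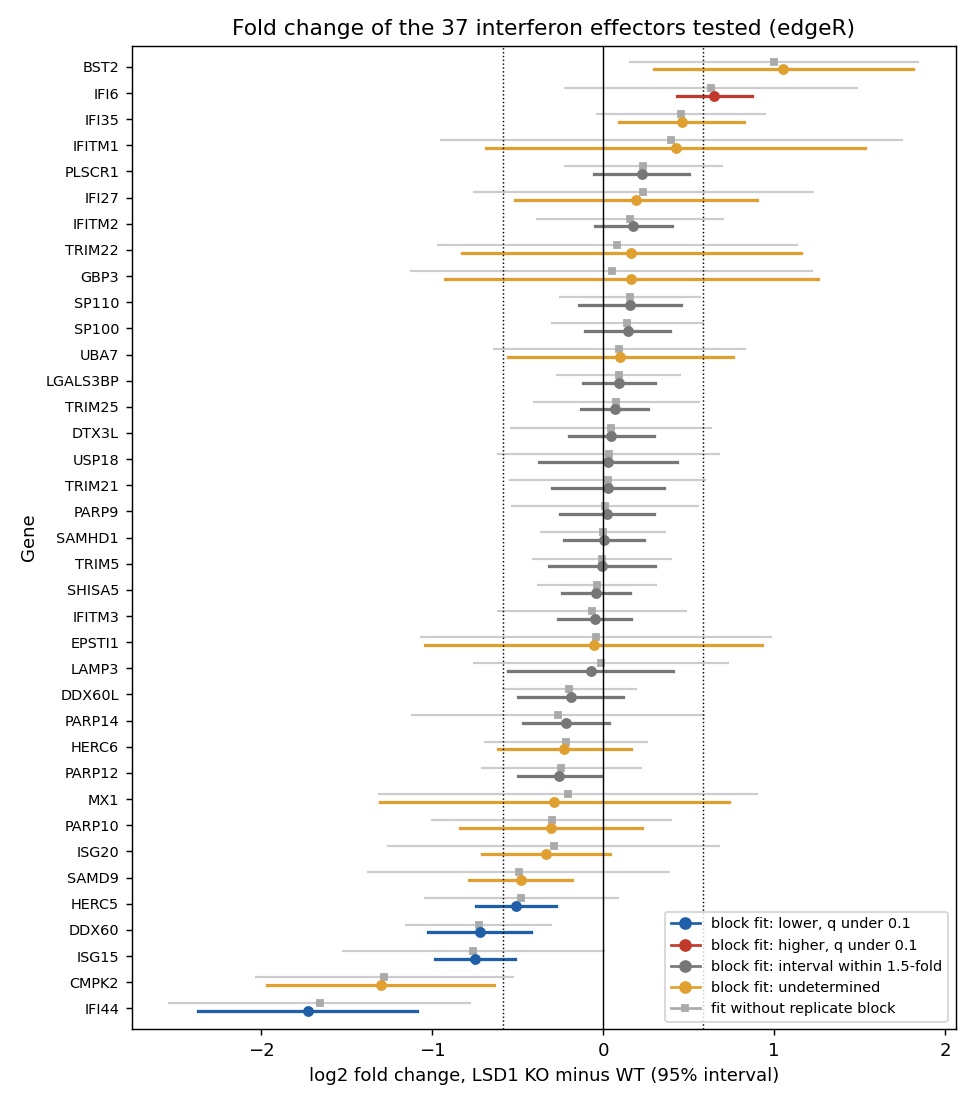
Log2 fold change (LSD1 KO minus WT, horizontal axis) with its 95% interval for the 37 effectors tested, from edgeR with the replicate block (coloured by class) and without it (light grey squares). Dotted lines mark 1.5-fold. IFI44 lies lowest at -1.73 with the block, IFI6 is the only effector called higher at 0.65, and the intervals without the block are wider.

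The ISG15 conjugation system held 2 of the 4 effectors that fell. ISG15 is a ubiquitin-like protein that is attached to other proteins by the enzymes UBA7 and HERC5 and removed by USP18. ISG15 (ENSG00000187608, chromosome 1 from 1013497 to 1014540, GRCh38.p14) had 212, 443 and 263 CPM in WT replicates 1, 2 and 3 and 148, 258 and 136 CPM in LSD1 KO. The LSD1 KO library of replicate 2 overlapped the WT libraries, but in each pair the LSD1 KO library was the lower, at 0.696, 0.584 and 0.519 times its WT partner. The log2 fold change was -0.75 (standard error 0.10, q value 0.0214 from edgeR) in the blocked fit and -0.76 (standard error 0.33, q value 0.999) without the block. The unblocked value moved to -0.40 without WT replicate 2 and to -1.12 without LSD1 KO replicate 2.

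HERC5 (ENSG00000138646, chromosome 4 from 88457119 to 88506163), the main ligase for ISG15 in human cells, had 62.1, 89.0 and 73.5 CPM in WT and 39.1, 72.4 and 49.6 CPM in LSD1 KO. The groups overlapped through the LSD1 KO library of replicate 2, and the pairs stood at 0.630, 0.813 and 0.676. Its log2 fold change was -0.51 (standard error 0.10, q value 0.0788 from edgeR) with the block, and it was not called when replicate 1 or replicate 3 was left out of that fit. Without the block its log2 fold change was -0.48, and it moved to -0.29 without LSD1 KO replicate 1 and to -0.77 without LSD1 KO replicate 2. UBA7, the activating enzyme, had counts of 34, 45 and 43 in the WT and 40, 45 and 43 in the LSD1 KO libraries, with an interval of the log2 fold change from -0.56 to 0.76. USP18 was flat, with 7.83 ± 1.8 CPM in WT and 8.02 ± 2.19 CPM in LSD1 KO (SD, n = 3 each). However, 33.0% of the 31-base sequences of its canonical transcript also occur in USP41, which had at most 3 counts in a library. HERC6, the relative and chromosomal neighbour of HERC5, had a log2 fold change of -0.23 and an interval from -0.61 to 0.16.

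Among the proteins that act on nucleic acids and nucleotides, 6 of 9 genes were tested, 1 fell and 2 were flat. DDX60 (ENSG00000137628, chromosome 4 from 168216294 to 168325979) is a helicase linked to the sensing of viral RNA. It had 34.5, 24.8 and 30.7 CPM in WT and 19.6, 18.8 and 15.9 CPM in LSD1 KO, so every LSD1 KO library was below every WT library. Such separation towards lower values was seen for 3.51% of all genes tested and for 3 of the 37 effectors. Its log2 fold change was -0.72 (standard error 0.13, q value 0.0539 from edgeR) with the block and -0.73 (standard error 0.19, q value 0.769) without it.

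DDX60L, the paralog 30755 bases away, was flat by the same interval. It had 55, 40.8 and 49.7 CPM in WT and 38.9, 46.3 and 41.8 CPM in LSD1 KO, where the log2 fold change was -0.19 (standard error 0.13) with an interval from -0.50 to 0.11. The ratio of DDX60 to DDX60L within a library does not depend on library size. It was 0.626, 0.608 and 0.619 in WT and 0.504, 0.407 and 0.380 in LSD1 KO. The ratios of the groups did not overlap. A two-sided exact permutation test that left out the pairing gave p = 0.1, as low as 3 against 3 libraries can go. The adjusted p of this test was 0.35 over 7 neighbouring gene pairs. Without replicate 2, DDX60L also passed the threshold in the fit with the block, with a log2 fold change of -0.39 beside -0.90 for DDX60. Without replicate 3, DDX60 was not called in that fit. Of the 31-base sequences of DDX60, 1.4% also occur in DDX60L.

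CMPK2, a mitochondrial nucleotide kinase, had 3.44, 2.88 and 3.18 CPM in WT and 1.07, 1.73 and 1.10 CPM in LSD1 KO. Its groups did not overlap, and the log2 fold change was -1.30 (standard error 0.29) with the block, with a q value of 0.109 from edgeR that missed the threshold. DESeq2 with the block called it (q value 0.0855), and so did edgeR with the block when every gene with counts was kept (q value 0.000612). RSAD2 (viperin), an enzyme that makes a chain-terminating nucleotide, overlaps CMPK2 by 751 bases on chromosome 2, on the opposite strand. It had counts of 23, 15 and 9 in the WT and 0, 1 and 5 in the LSD1 KO libraries, below the filter on low counts but with no overlap between the groups. In the fits that kept every gene with counts, its q value from edgeR was 0.399 without the block and 0.0301 with it. The latter fit called 1285 of the 33857 genes with counts. Whether the counting used strand is not given in the sources used here, so reads in the shared stretch cannot be assigned to CMPK2 or RSAD2.

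Of the other tested genes of this role, 2 moved strongly with replicate 2. SAMD9, which limits viral translation, had 21.8, 8.82 and 15.5 CPM in WT and 15.9, 6.96 and 10.0 CPM in LSD1 KO, and its blocked log2 fold change was -0.48 (standard error 0.13, q value 0.174 from edgeR). Its lowest library in each group was replicate 2. ISG20, an RNA exonuclease, had 5.86, 12.1 and 6.63 CPM in WT and 4.26, 10.9 and 4.96 CPM in LSD1 KO, and was highest in replicate 2. SAMHD1, which removes the nucleotides that reverse transcription needs, was flat at 45.6 ± 5.77 and 45.5 ± 2.86 CPM (SD, n = 3 each).

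**Figure D3:**
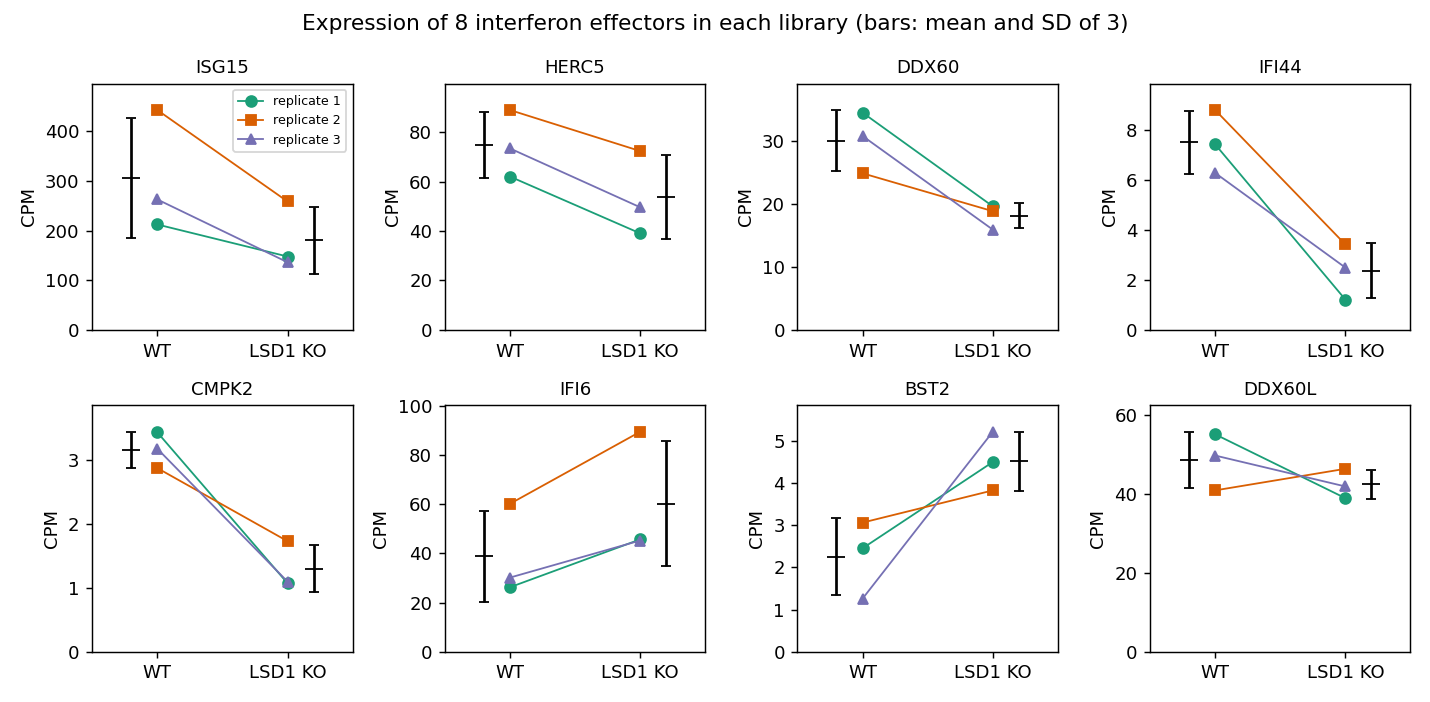
CPM of 8 effectors in each library, with same-numbered WT and LSD1 KO libraries joined by a line and the mean and SD of 3 libraries beside the points. The lines of ISG15, HERC5, DDX60, IFI44 and CMPK2 fall in every pair, those of IFI6 and BST2 rise in every pair, and those of DDX60L cross.

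IFI44 had the largest fall among the 37 effectors tested. IFI44 (ENSG00000137965, chromosome 1 from 78649789 to 78664078), an interferon-induced cytoplasmic protein, had 7.44, 8.82 and 6.30 CPM in WT and 1.22, 3.43 and 2.50 CPM in LSD1 KO. Every LSD1 KO library was below every WT library, and their mean stood at 31.7% of that in WT. The log2 fold change was -1.73 (standard error 0.28, q value 0.0354 from edgeR) with the block and -1.66 (standard error 0.39, q value 0.616) without it, and DESeq2's Wald test gave a q value of 0.00975. IFI44L, its paralog 3643 bases away, had counts of 1, 0 and 3 in the WT and 2, 2 and 0 in the LSD1 KO libraries, at or under the floor in every library. IFI35, a partner of the interferon-induced protein NMI, had 8.92, 12.3 and 9.41 CPM in WT and 15.9, 14 and 12.0 CPM in LSD1 KO, and its blocked log2 fold change was 0.46 (standard error 0.16, q value 0.273 from edgeR). EPSTI1 lay near 1 CPM, at 0.818 ± 0.241 in WT and 0.798 ± 0.299 CPM in LSD1 KO.

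IFI6 was the effector that rose. IFI6 (ENSG00000126709, chromosome 1 from 27666064 to 27672192) is a small membrane protein that protects cells from flavivirus replication and from death. It had 26.2, 60.2 and 30.2 CPM in WT and 45.7, 89.5 and 45.2 CPM in LSD1 KO. The groups overlapped because replicate 2 was the highest library in both, and the LSD1 KO library stood at 1.74, 1.49 and 1.5 times its WT partner. The log2 fold change was 0.65 (standard error 0.095, q value 0.0255 from edgeR) with the block and 0.63 (standard error 0.38, q value 0.999) without it. The unblocked value moved to 1.09 without WT replicate 2 and to 0.21 without LSD1 KO replicate 2, and was 0.41 without WT replicate 1. Of the 31-base sequences of its canonical transcript, 23.8% also occur in LINC02574, which had 0 counts in every library.

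IFI6 and ISG15, both short transcripts (812 and 637 bases) that were high in replicate 2, moved in opposite directions. Within a library, ISG15 had 8.09, 7.35 and 8.71 times the counts of IFI6 in WT and 3.23, 2.89 and 3.01 times in LSD1 KO. The ratio fell from 8.05 ± 0.679 to 3.04 ± 0.175 (SD, n = 3 libraries each) with little spread inside a group. This pair was chosen after the values of both genes had been seen, and no test is given. IFI27, the related mitochondrial protein, had counts of 28, 39 and 57 in the WT and 26, 64 and 51 in the LSD1 KO libraries, with an interval of the log2 fold change from -0.52 to 0.90.

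**Figure D4:**
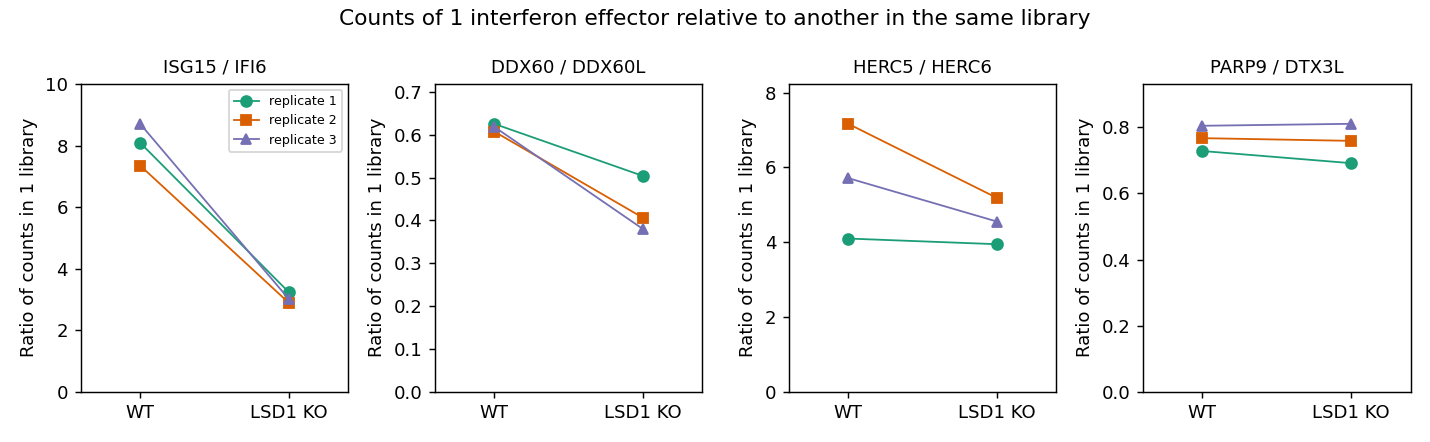
Counts of 1 effector divided by those of another in the same library, for ISG15 over IFI6, DDX60 over DDX60L, HERC5 over HERC6 and PARP9 over DTX3L, with same-numbered libraries joined. The first ratio falls from between 7.35 and 8.71 in WT to between 2.89 and 3.23 in LSD1 KO, the second separates the groups, and the last 2 overlap.

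Of the 8 membrane and secreted effectors tested, 0 were called in edgeR with all libraries and the filter on low counts. With the block, 6 were flat, against 55.6% of all genes tested. Without the block 2 of the 8 were flat, against 28.1% of all genes, and 6 could be placed in no class. IFITM3 and IFITM2, which hinder the fusion of viral with cellular membranes, had log2 fold changes of -0.050 and 0.18 with the block, and intervals from -0.26 to 0.16 and from -0.047 to 0.40. The ratio of IFITM3 to IFITM2 was 2.57 ± 0.0458 in WT and 2.19 ± 0.0304 in LSD1 KO (SD, n = 3 each), without overlap (exact permutation test, two-sided, p = 0.1, adjusted p = 0.35 over the 7 pairs). These genes share sequence, since 46.8% of the 31-base sequences of IFITM3 and 17.0% of those of IFITM2 occur in other genes, so the split of reads between them is uncertain. IFITM1, with 59.4% of such sequences, had counts of 13, 51 and 43 in the WT and 36, 25 and 76 in the LSD1 KO libraries.

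BST2 (tetherin), which holds budding virions at the cell surface, was the 1 effector whose LSD1 KO libraries all lay above its WT libraries, a separation seen in 4.23% of all genes tested. It had 2.46, 3.07 and 1.26 CPM in WT and 4.51, 3.83 and 5.22 CPM in LSD1 KO. The log2 fold change was 1.05 (standard error 0.33, q value 0.219 from edgeR) with the block and 1.00 (standard error 0.37, q value 0.999) without it, so it was not called. Its pairs ranged from 1.25 to 4.15 times, with the smallest ratio in replicate 2. Without replicate 3 the blocked value was 0.60. Without replicate 2 the fit with the block called it, at a log2 fold change that reached 1.42 (standard error 0.30, q value 0.00505 from edgeR). With every gene with counts kept, edgeR with the block also called it (q value 0.00187), a fit that called 1285 of 33857 genes. DESeq2 with the block did not call it (q value 0.160).

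LGALS3BP and SHISA5, a protein of the endoplasmic reticulum, were flat both with and without the block. LGALS3BP had 276.0 ± 25.8 CPM in WT and 294 ± 14 CPM in LSD1 KO, and SHISA5 had 80.8 ± 4.92 and 78.8 ± 7.5 CPM (SD, n = 3 each). PLSCR1, a phospholipid scramblase, had a log2 fold change of 0.23 with an interval from -0.050 to 0.50. LAMP3, a lysosomal membrane protein, had a log2 fold change of -0.073 with an interval from -0.56 to 0.41.

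Of the 5 ADP-ribosylation effectors, 4 were flat with the block, against 55.6% of all genes tested, and 1 was flat without it, against 28.1%. PARP9 and DTX3L, which work as a complex and start from overlapping ends on chromosome 3, had log2 fold changes of 0.022 and 0.049 with the block. Their ratio within a library was 0.767 ± 0.0382 in WT and 0.754 ± 0.0597 in LSD1 KO (two-sided exact permutation test, p = 0.8). PARP12 and PARP14 had log2 fold changes of -0.26 and -0.22, with intervals from -0.50 to -0.011 and from -0.47 to 0.033. PARP14 was lowest in replicate 2 of both groups, at 49.0, 18.4 and 30.1 CPM in WT and 37.5, 18.2 and 25.6 CPM in LSD1 KO. PARP10 had counts of 66, 90 and 77 in the WT and 53, 74 and 59 in the LSD1 KO libraries, and could be placed in no class.

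Of the tripartite motif proteins, TRIM5, TRIM21 and TRIM25 were flat. TRIM25, a ubiquitin ligase of the RNA sensing pathway, had 179, 137 and 188 CPM in WT and 190.0, 135 and 208 CPM in LSD1 KO. TRIM5, which binds retroviral capsids, had 19.7 ± 1.69 and 19.6 ± 2.64 CPM, and TRIM21, a cytosolic antibody receptor, had 9.90 ± 2.10 and 10.1 ± 2.12 CPM (SD, n = 3 each). TRIM22, 4715 bases from TRIM5, had counts of 12, 27 and 40 in the WT and 30, 25 and 26 in the LSD1 KO libraries. SP100 and SP110, proteins of nuclear bodies, were flat in both fits, with log2 fold changes of 0.14 and 0.16 with the block.

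The GTPases that act on virus particles and on vacuoles of pathogens had low counts or did not pass the filter on low counts. MX1, which blocks influenza viruses, had counts of 26, 35 and 26 in the WT and 13, 23 and 38 in the LSD1 KO libraries, with an interval of the log2 fold change from -1.31 to 0.74. GBP3 had counts of 65, 18 and 32 in the WT and 34, 53 and 31 in the LSD1 KO libraries. From these libraries neither a fall nor a rise of either gene by 1.5-fold could be told from no change.

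The replicate 2 libraries moved some effectors as far as the groups did. Relative to the mean of replicates 1 and 3, replicate 2 deviated in the same direction in both groups for 21 of the 37 effectors tested. It deviated in opposite directions for the others. The share over all genes was not computed, so this count shows nothing particular to the effectors. ISG15, ISG20 and IFI6 were higher in replicate 2 than in the mean of replicates 1 and 3 by over 0.5 on the log2 scale in both groups, and SAMD9 and PARP14 were lower by that much. The canonical transcripts of the first set had 637 to 1583 bases and those of the second 6806 and 7694 bases, beside a median of 3037 bases over the 37 effectors, and the part of transcript length in these values was not tested. When both replicate 2 libraries were left out of the fit with the block, 10 of the 37 effectors were called, against 5.85% of all genes tested. Of these, 7 were lower, against 2.79% of all genes, and 3 were higher, against 3.05%. These 10 held the 5 effectors called from all libraries, joined by CMPK2, DDX60L and SAMD9, which fell, and by BST2 and IFI35, which rose. With the block and without replicate 1, ISG15, DDX60, IFI44 and IFI6 were called, among 428 genes called over all genes. With the block and without replicate 3, ISG15, IFI44, IFI6 and RSAD2 were called, among 198 genes called over all genes. RSAD2, which the filter on low counts left out with all libraries, passed it here through its WT counts alone. These were 23 and 15, against 0 and 1 in LSD1 KO, so its call is no support for a fall. In edgeR without the block, 0 effectors were called when replicate 1, 2 or 3 was left out, and for replicate 2 the shares over all genes were 0.0499% lower and 0.0721% higher.

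The promoters of the effectors were compared with all promoters, because ISREs are the common entry point of the pathway. RefSeq windows of 250 bases before to 50 bases after a start site (GRCh38.p14) were given for 38 of the 46 genes. The ISRE core was searched on both strands as GAAA, any 2 bases and GAAA again. It was found for 28 of these 38 genes (73.7%), for 4.38% of all genes with a window and for 3.79% of those tested. Because the effectors were listed as interferon-stimulated genes, the choice of list made a high share likely. The core of the gamma-activated site, TTCNNNGAA, which reads the same on both strands and can overlap an ISRE match, was found for 11 of the 38 genes (28.9%) and 9.38% of all genes. By window rather than by gene, 3.57% of the 35116 windows held the ISRE core and 7.66% held the other. All 4 effectors that fell held an ISRE core, and so did IFI6, 11 of 15 flat effectors with a window and 8 of 11 that could be placed in no class. A match is a string of letters and not a measured binding site, and genes with and without a fall shared it.

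The stretches that hold the ISRE matches of the effectors that fell, of IFI6, which rose, and of the neighbour DDX60L and of BST2 are printed below, from RefSeq, 5′ to 3′ in the direction of the gene, with matches to the ISRE core on either strand in capitals. ISG15 is from chr1:1013364-1013419 (plus strand), HERC5 from chr4:88456974-88457074 (plus), DDX60 from chr4:168318776-168318860 (minus), DDX60L from chr4:168480513-168480592 (minus), IFI44 from chr1:78649751-78649800 (plus), IFI6 from chr1:27672256-27672368 (minus) and BST2 from chr19:17405725-17405780 (minus).
ISG15: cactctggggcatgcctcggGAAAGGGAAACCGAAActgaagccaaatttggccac
HERC5: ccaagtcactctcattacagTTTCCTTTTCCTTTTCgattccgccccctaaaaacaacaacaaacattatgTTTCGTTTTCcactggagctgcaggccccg
DDX60: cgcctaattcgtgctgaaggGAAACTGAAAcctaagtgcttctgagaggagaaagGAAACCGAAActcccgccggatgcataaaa
IFI44: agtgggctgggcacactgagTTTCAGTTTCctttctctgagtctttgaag
DDX60L: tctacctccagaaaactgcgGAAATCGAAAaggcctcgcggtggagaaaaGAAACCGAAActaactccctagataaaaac
IFI6: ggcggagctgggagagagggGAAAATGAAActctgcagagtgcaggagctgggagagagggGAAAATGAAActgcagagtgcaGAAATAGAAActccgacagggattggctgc
BST2: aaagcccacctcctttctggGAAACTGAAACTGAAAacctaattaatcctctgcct
ISG15 and BST2 each hold 2 overlapping matches, which begin 113 and 107 bases before the start site in ISG15 and 130 and 124 bases before it in BST2. DDX60 and DDX60L have the same layout, with matches 88 and 53 bases before the start in DDX60 and 80 and 50 bases in DDX60L, and the nearer match of both reads GAAACCGAAA. IFI6 holds 3 matches, and HERC5 holds 3 on the opposite strand, of which 2 overlap. IFI44 holds 1 match, also on the opposite strand, 18 bases before the first of its start sites. The start site used for DDX60 lies inside the RefSeq gene, downstream of its outer end.

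**Figure D5:**
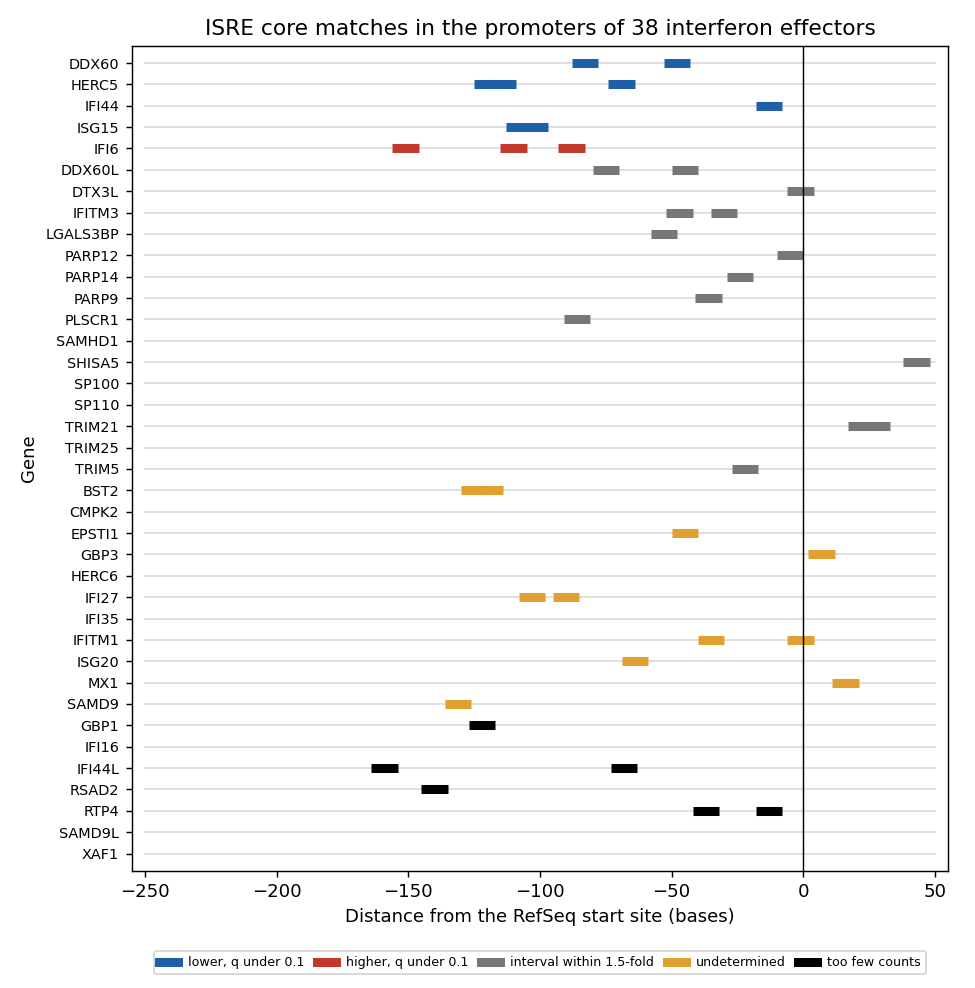
Position of ISRE core matches (thick bars) from 250 bases before to 50 bases after the RefSeq start site for the 38 effectors with a window, coloured by class in the fit with the replicate block; where a gene has several windows, the one with most matches is drawn. The matches of the 4 effectors that fell lie between 125 bases and the start site, and flat and unclassed effectors have matches in the same range.

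The relay upstream of the effectors was measured in the same libraries. Of 12 genes for interferon receptors, JAK kinases and the factors they act on, IRF9 included, edgeR with the replicate block called 0. Over all genes tested it called 1.6%, so 0 of 12 sets these genes apart from no others. It placed 11 as flat, which means within 1.5-fold and not unchanged, against 55.6% of all genes tested. Without the block 7 were flat, against 28.1% of all genes tested. With the block, 9 of the 12 had a positive and 3 a negative log2 fold change (median 0.20). The unadjusted p from that fit was under 0.05 for 5 of them, against 13.4% of all genes tested. Every LSD1 KO library lay above every WT library for 4 of the 12, against 4.23% of all genes tested, and below for 1, against 3.51%. IRF9, a DNA-binding subunit of the factor that binds ISREs, had counts of 112, 265 and 258 in the WT and 323, 344 and 320 in the LSD1 KO libraries, and its blocked log2 fold change was 0.74 (standard error 0.22, q value 0.201 from edgeR). DESeq2 with the block called IRF9 higher, and so did edgeR with the block without replicate 2 or with all genes with counts kept. All 5 IRF factors listed (IRF1, IRF2, IRF3, IRF5 and IRF7) were flat with the block, and 2 of them without it, against the same 55.6% and 28.1%. IFNB1 had counts of 2, 1 and 1 in the WT and 1, 0 and 0 in the LSD1 KO libraries, and IFNL1, a type III interferon, had counts of 28, 42 and 19 in the WT and 10, 24 and 4 in the LSD1 KO libraries (q value 0.226 from edgeR with the block).

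Of the 41 other pathway genes tested, edgeR with the block called 6 (14.6%), against 1.6% of all genes tested, and without the block it called 0. Of the 6 genes, 5 were lower, against 0.549% of all genes, and 1 was higher, against 1.05%. The 5, which DESeq2 also called without the block, were IFIT1, IFIT2, IFIT3 and OASL, among 8 IFIT and OAS family genes tested, and RIGI, a sensor of viral RNA. Their log2 fold changes ran from -1.58 to -0.98 with the block, which places IFI44 at -1.73 beside them and ISG15, DDX60 and HERC5 above them. STING1, the adaptor of DNA sensing, rose, with 468, 458 and 457 counts in WT and 641, 723 and 666 in LSD1 KO (log2 fold change 0.58, standard error 0.12, q value 0.0856 from edgeR with the block), a call that was lost without replicate 3. None of these lists was independent of earlier results of these data.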

How the data were processed

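Poly(A) RNA of 3 WT and 3 LSD1 KO samples of HCT116 was sequenced. The authors quantified the reads with Salmon (1.4.0 in the submitters' processing notes) against GENCODE v36 on GRCh38 after Trimmomatic 0.39, and deposited whole-number expected counts for each gene, without scaling. The step from transcripts to genes is not given in the sources used here. Of 60240 identifiers, 58395 were matched to symbols through the stable part of the identifier.

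Groups were compared in edgeR 4.0.16 (TMM, filterByExpr, quasi-likelihood test, Benjamini-Hochberg over all genes tested) at a q value under 0.1. DESeq2 1.42.0, the tool of the study, was an alternative. Standard errors came from the fold change and the F statistic. Same-numbered libraries had Pearson's r of 0.639, 0.631 and 0.491 between their deviations from the group means over 17672 genes, all above 0.1, so they were taken as pairs and the replicate number was added as a block. The labels do not state this pairing, and it was inferred from the same counts that were then tested. Full statistics went to effectors with a q value under 0.1 in either fit, or with separated groups and an unadjusted p under 0.05, and other effectors were described by role. The exact permutation test was two-sided and took the libraries as unpaired, unlike the fit with the block. Levels between genes were compared per kilobase of the GENCODE v44 canonical transcript. The members, lists and neighbouring pairs were chosen with earlier results of these data known. The fits were tested on simulated data. Alternatives were other size factors, filters, tests and thresholds, and leaving out libraries or replicate numbers. Python 3.11.15 was used for the sequence searches.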

Additional observations from a re-analysis of the deposited data

How the results depend on the processing

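The calls depended on whether the same-numbered libraries were treated as pairs. Without the replicate block edgeR called 1 gene over all genes and 0 effectors, and with it 282 genes and 5 effectors (4 lower, 1 higher), with 18 effectors flat in place of 9 and 6 other pathway genes called in place of 0. Without the block, keeping all genes with counts called 114 genes, 1 effector (1 lower) and 5 pathway genes, and DESeq2 called 95 genes, 1 effector (1 lower) and 5 pathway genes. With the block, DESeq2 called 597 genes, 6 effectors (5 lower, 1 higher) and 7 pathway genes. Chosen after seeing the data, the block with all genes with counts called 1285 genes, 9 effectors (7 lower, 2 higher) and 9 pathway genes, with 19 effectors flat, and the block at a q value under 0.05 called 143 genes, 3 effectors (2 lower, 1 higher) and 5 pathway genes, with 18 flat. The cause of these differences was not tested.

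Leaving out single libraries or replicate numbers without the block gave 0 to 26 genes called over all genes, 0 effectors called, 1 to 10 effectors flat, 0 to 3 pathway genes called and a median log2 fold change of the effectors from -0.11 to 0.062. With the block, leaving out replicate 1, 2 or 3 called 428, 1055 and 198 genes, 4, 10 and 4 effectors (3, 7 and 3 lower and 1, 3 and 1 higher) and 6, 8 and 5 pathway genes, with 17, 15 and 13 effectors flat and medians of 0.035, -0.083 and 0.034. KDM1A stayed between -3.01 and -2.95, with a q value of 0.336 without both replicate 3 libraries in the fit without the block. KDM1A and the 7 effectors given full statistics kept their direction under the alternatives run, whereas the median of the effectors, close to 0, took either sign. The filter on low counts left out 9 effectors, which edgeR with that filter and all libraries did not test. RSAD2 among them was called in other fits, as given above.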
